A study of Mus musculus with 8 samples.

Results

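The comparison described here is the interaction of FIH loss with hypoxia: the hypoxia response of FIH-KO cells minus the hypoxia response of WT cells, on the log2 scale. A positive value means that a transcript's ratio of hypoxia to normoxia was larger in FIH-KO cells, and a negative value that it was smaller. It uses 8 of the 8 libraries of the RNA-Seq series, 2 in each of 4 groups of Lewis lung carcinoma (LLC) cells, a mouse lung cancer line. The groups are WT cells at 21% O2 (WT normoxia), WT cells at 1% O2 (WT hypoxia), FIH-KO cells at 21% O2 (FIH-KO normoxia) and FIH-KO cells at 1% O2 (FIH-KO hypoxia), all cultured for 16 hours. FIH-KO cells were obtained with CRISPR/Cas9 and a guide against exon 2 of Hif1an, the mouse gene of FIH, and were then selected by single-cell dilution, so a difference between genotypes and a difference between clones cannot be told apart. The methods do not say whether the 2 libraries of a group came from separate cultures, so the p values measure the spread between these libraries, which may be technical.

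FIH is an asparaginyl hydroxylase that needs oxygen. In oxygenated cells it modifies the C-terminal activation domain of the HIF-α subunits, which blocks the binding of the coactivators p300 and CBP, while the prolyl hydroxylases of the PHD family mark HIF-α for destruction by VHL. Hypoxia lets HIF-α accumulate and bind the hypoxia-response element, a short promoter or enhancer sequence, upstream of genes for glycolysis, angiogenesis, pH control and mitophagy. Severe hypoxia also engages the integrated stress response, in which the factor ATF4 raises genes of amino acid transport and synthesis.

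Library totals were between 14519731 and 18177016 counts, and 13933 of 53700 genes were tested with edgeR's quasi-likelihood model over all 8 libraries, with Benjamini-Hochberg adjustment. Hif1an kept between 584 and 784 reads in the FIH-KO libraries and had between 1231 and 1609 in the WT libraries. The keratins Krt8 and Krt18 had over 1000 reads in every library, whereas the epithelial markers Epcam and Cdh1 had at most 1 read, and Vim had between 46720 and 93218. Of 8 leukocyte markers 6 had at most 3 reads in any library, as had 3 of 5 endothelial, 1 of 6 fibroblast and 6 of 6 erythroid markers. Cd68 had 41 to 115 reads and Lyz2 had 2 to 107 among the leukocyte markers, Cdh5 at most 35 among the endothelial ones, and Pdgfra 111 to 427 and Dcn 9 to 83 among the fibroblast ones. The 2 libraries of FIH-KO hypoxia differed more from each other than those of any other group, with a chi-square statistic, divided by its degrees of freedom, of 25.8 against 6.17 in WT normoxia, 11.6 in WT hypoxia and 16.4 in FIH-KO normoxia. Values without FIH-KO hypoxia replicate 1 or replicate 2 are given beside a number of the results.

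The hypoxia responses of both genotypes shared their direction in most genes. In WT cells 2349 genes rose in hypoxia (16.9% of those tested) and 2160 fell (15.5%), and in FIH-KO cells 1231 rose (8.84%) and 1114 fell (8%). Among these, 1985 genes passed in both genotypes, which is 44.0% of the WT list and 84.6% of the FIH-KO list, and all 1985 changed in the same direction (1103 up and 882 down). The responses, compared over the 13933 genes (genes are not independent replicates), had a Pearson r of 0.759 and a Spearman rho of 0.732, with no library in common. Leaving out single libraries moved the number called in WT cells from 4509 to between 2124 (without WT normoxia replicate 2) and 5270 (without FIH-KO hypoxia replicate 1). The number in FIH-KO cells moved from 2345 to between 1097 (without FIH-KO normoxia replicate 1) and 2604 (without FIH-KO hypoxia replicate 2). The median absolute response was 0.368 on the log2 scale for WT and 0.276 for FIH-KO cells.

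The direct test of the interaction called no gene. Under edgeR's quasi-likelihood test 0 genes were higher (0%) and 0 lower at an adjusted p under 0.05, and the smallest adjusted p was 0.145. At an unadjusted p under 0.05 there were 352 genes with a positive interaction (2.53% of those tested) and 573 with a negative one (4.11%). With a filter of at least 10 counts in every library that split was 416 to 417, and without FIH-KO hypoxia replicate 1 it was 1119 to 825. DESeq2's Wald test called 40 genes at its adjusted p, 15 positive (0.137% of the 10961 genes it gave an adjusted p) and 25 negative (0.228%). All 40 kept their sign in edgeR when either library of FIH-KO hypoxia was left out. Those fits reuse the other libraries by which the 40 were picked, so the kept signs are no independent support. Without FIH-KO hypoxia replicate 1 edgeR called 39 genes, 19 positive and 20 negative, and without WT normoxia replicate 1 it called Stc1 alone. Leaving out any other library gave 0 calls. The standard error of the interaction had a median of 0.245 on the log2 scale, so differences of that order in a single gene were not detectable with these libraries. Far larger estimates were not called either, such as 2.86 for Stc1 and -2.17 for Txnip (edgeR adjusted p 0.188 for both). Of the 925 genes at an unadjusted p under 0.05, 341 had a smaller estimated increase in FIH-KO than in WT cells and 193 a smaller reduction, against 48 with a larger increase and 25 with a larger reduction. In the remaining 207 with a negative and 111 with a positive interaction, the responses of the genotypes had opposite signs. Single genes are therefore given as estimates, most with unadjusted 95% intervals in brackets. Calls by DESeq2 are given beside the gene or with the counts of called genes. Where a DESeq2 adjusted p stands alone, edgeR's fit of all 8 libraries did not call the gene. The 12 genes of smallest p in each direction, the core HIF targets and the genes the study drew attention to are named by rule, and other members of the gene lists were named after their values were seen.

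**Figure D1:**
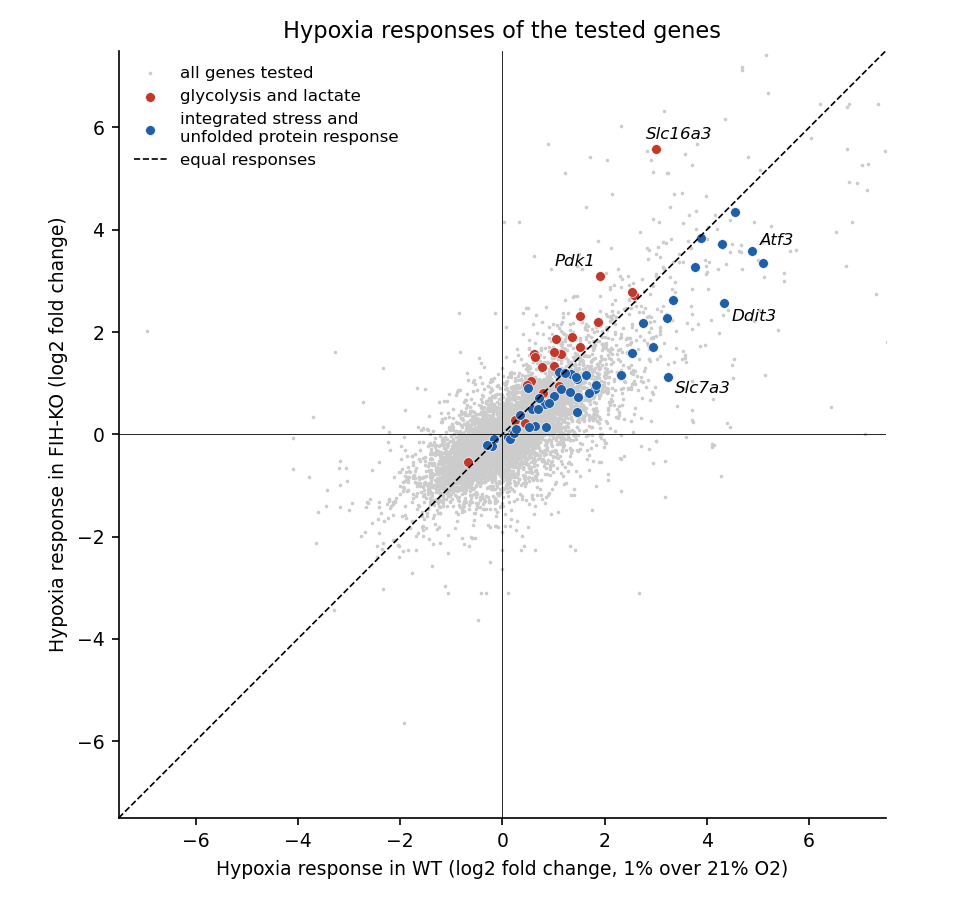
Each point is a tested gene, with its hypoxia response in WT cells on the x axis and in FIH-KO cells on the y axis (log2 fold change, 1% over 21% O2). Red points are 22 genes of glycolysis and lactate export, blue points are 46 genes of the integrated stress and unfolded protein response, the dashed line marks equal responses, and 12 genes lie outside the axes. Most red points lie above the line and most blue points lie below it.

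Genes of glycolysis had larger hypoxia responses in FIH-KO than in WT cells by their estimates, none past the adjusted threshold in edgeR. Of 22 tested genes of glucose uptake, glycolysis and lactate, 18 rose in hypoxia in each genotype. Over all tested genes 16.9% rose in WT and 8.84% in FIH-KO cells. The median response of the list was 1.03 in WT and 1.57 in FIH-KO cells. The interaction was positive in 20 of 22 genes with a median of 0.45, whereas the median over all tested genes was -0.02. At an unadjusted p under 0.05 it was positive in 11 of 22 (50%, against 2.53% of all tested genes) and negative in 0. These 11 were Gpi1, Pfkl, Tpi1, Gapdh, Pgk1, Pgam1, Eno1, Pkm, Ldha, Slc16a3 and Pdk1, and DESeq2 called Gpi1, Pgk1, Pgam1, Ldha and Pdk1. Over the 15 other settings the count was between 7 (without WT hypoxia replicate 2) and 15 and the median between 0.32 and 0.68.

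Pgam1, the phosphoglycerate mutase of glycolysis, had 333 and 284 CPM in WT normoxia, 508 and 441 in WT hypoxia, 141 and 161 in FIH-KO normoxia and 428 and 469.8 in FIH-KO hypoxia (CPM, read counts scaled to library size). The genotypes overlapped in hypoxia, and in normoxia both FIH-KO libraries were below both WT libraries. The response was 0.62 in WT and 1.57 in FIH-KO cells, an interaction of 0.95 (95% interval 0.56 to 1.34, edgeR adjusted p 0.188, DESeq2 adjusted p 0.00113). Ldha, which turns pyruvate into lactate, had 2384 and 1970 CPM in WT normoxia, 3587 and 3151 in WT hypoxia, 1466 and 1497 in FIH-KO normoxia and 4140 and 4272 in FIH-KO hypoxia. Both FIH-KO libraries lay below WT in normoxia and above WT in hypoxia, and the interaction was 0.88 (0.46 to 1.29, edgeR adjusted p 0.267, DESeq2 adjusted p 0.00139). Slc16a3, the lactate exporter MCT4, had 12.5 and 7.40 CPM in WT normoxia, 95.3 and 64.0 in WT hypoxia, 2.26 and 1.399 in FIH-KO normoxia and 112 and 62.7 in FIH-KO hypoxia. Its level in FIH-KO normoxia was below every other library, the hypoxic levels overlapped, and the interaction was 2.57 (1.49 to 3.65, edgeR adjusted p 0.188), the largest of the list.

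Pdk1 encodes the kinase that keeps pyruvate out of the mitochondria by inhibiting pyruvate dehydrogenase. It had 98.8 and 75.2 CPM in WT normoxia, 341 and 314 in WT hypoxia, 74.4 and 45.6 in FIH-KO normoxia and 544 and 481 in FIH-KO hypoxia. The FIH-KO libraries were the lowest in normoxia and the highest in hypoxia, with an interaction of 1.18 (0.58 to 1.78, edgeR adjusted p 0.32, DESeq2 adjusted p 0.00731). Pgk1, the phosphoglycerate kinase, showed the same order of groups and an interaction of 0.79 (0.38 to 1.199). All 11 genes had a lower estimate in FIH-KO than in WT cells in normoxia, and 9 of the 11 a higher one in hypoxia. The normoxic difference and the interaction share the normoxic libraries, so these are not independent observations. Of the genes outside these 11, Slc2a1, the glucose transporter GLUT1, responded by 2.57 in WT and 2.73 in FIH-KO cells. Hk2, hexokinase, responded by 1.88 and 2.20. Their interactions were 0.16 (-0.50 to 0.83) and 0.32 (-0.22 to 0.86), and without FIH-KO hypoxia replicate 1 they were -0.28 and 0.07, without replicate 2 0.54 and 0.58. On the linear scale of CPM, 15 of the 20 genes with a positive log2 interaction also had a larger increase in FIH-KO cells. Several of these genes, Gapdh, Ldha and Pgam1 among them, have processed pseudogenes that can share reads.

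**Figure D2:**
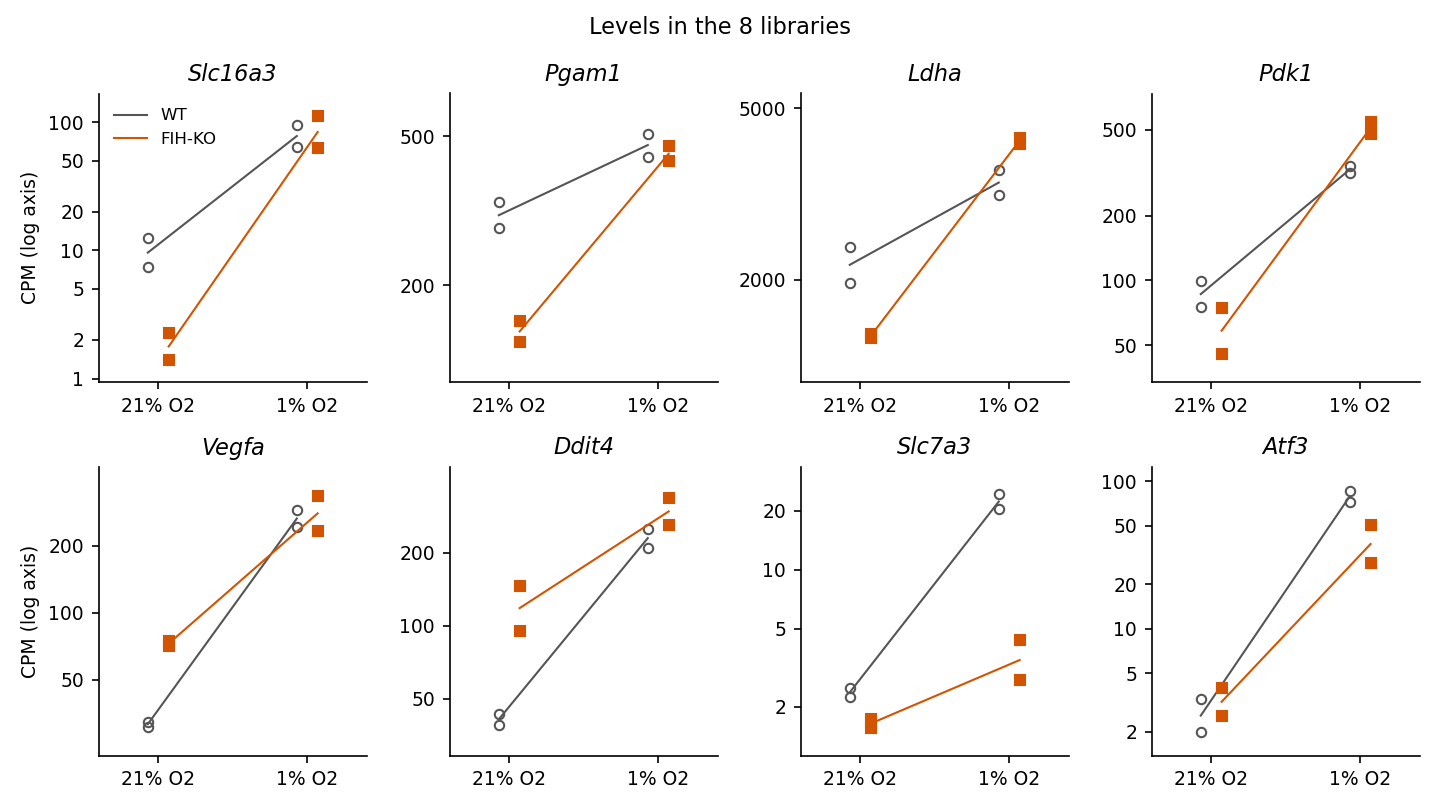
Levels of 8 genes (CPM on a log axis) in normoxia (21% O2) and hypoxia (1% O2), with open circles for the 2 WT libraries and filled squares for the 2 FIH-KO libraries of each condition, and lines joining the geometric means. The upper row has steeper FIH-KO lines, as for Slc16a3 and Ldha, and the lower row has shallower ones, as for Vegfa and Slc7a3.

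The other HIF targets had estimates in both directions. HIF-induced oxygenases, which use oxygen to hydroxylate or demethylate proteins and DNA, had median responses of 1.30 in WT and 1.61 in FIH-KO cells. Their interaction was positive at an unadjusted p under 0.05 in 2 of 12, Plod2 and P4ha1 (16.7%, against 2.53% of all tested genes), and negative in 0. It was positive in 4 without FIH-KO hypoxia replicate 2, FIH-KO normoxia replicate 1 or WT hypoxia replicate 1. Plod2, a lysyl hydroxylase that matures collagen, had 146 and 125 CPM in WT normoxia, 388 and 388 in WT hypoxia, 77.7 and 74.6 in FIH-KO normoxia and 453 and 385 in FIH-KO hypoxia. FIH-KO cells were lower in normoxia, overlapped WT cells in hypoxia and had an interaction of 0.94 (0.57 to 1.31, edgeR adjusted p 0.188, DESeq2 adjusted p 0.00113). The prolyl hydroxylase genes Egln1 and Egln3, which encode PHD2 and PHD3, had interactions of 0.17 (-0.24 to 0.59) and 0.44 (-0.10 to 0.98).

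Of 10 secreted HIF targets, Stc1 and Apln were positive (20%) and Vegfa negative (10%) at an unadjusted p under 0.05. These shares were 2.53% and 4.11% over all tested genes. DESeq2 called Vegfa alone. Vegfa, the principal angiogenic growth factor, had 30.8 and 32.3 CPM in WT normoxia, 291 and 243 in WT hypoxia, 74.6 and 70.9 in FIH-KO normoxia and 335 and 234 in FIH-KO hypoxia. Both FIH-KO libraries were above WT in normoxia and the groups overlapped in hypoxia. Vegfa rose by 3.08 in WT and by 1.97 in FIH-KO cells, an interaction of -1.11 (-1.60 to -0.62, edgeR adjusted p 0.188, DESeq2 adjusted p 0.00449). Stc1, the secreted glycoprotein stanniocalcin, had 26.4 and 62.9 CPM in WT normoxia, 64.7 and 73.3 in WT hypoxia, 1.07 and 2.69 in FIH-KO normoxia and 24.6 and 18.03 in FIH-KO hypoxia. It was lower in every FIH-KO library than in any WT library, and the log2 interaction was 2.86 (1.66 to 4.07, DESeq2 adjusted p 0.137), whereas the difference of differences in mean CPM was -4.93, of opposite sign. Apln, the peptide apelin, had an interaction of 1.08 (0.25 to 1.90) and Adm, adrenomedullin, of 0.03 (-0.83 to 0.89). Over 10 tested secreted factors the median was -0.01, and it was -0.65 without FIH-KO hypoxia replicate 1 and 0.35 without replicate 2.

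HIF targets of mitophagy, pH, glycogen and stress had a median interaction of -0.01 over 29 genes, with 3 positive (Ak4, Ugp2 and Fam162a) and 4 negative (Ddit4, Car9, Bhlhe41 and Selenbp1) at an unadjusted p under 0.05. These were 10.3% and 13.8% of the list, against 2.53% and 4.11% of all tested genes. The counts were 2 and 8 without FIH-KO hypoxia replicate 1, and 7 and 4 without replicate 2. Ddit4, which restrains mTORC1, had 43.5 and 39.0 CPM in WT normoxia, 251 and 209.6 in WT hypoxia, 146 and 95.4 in FIH-KO normoxia and 336 and 259 in FIH-KO hypoxia. It was higher in FIH-KO than in WT cells in both conditions and rose in both genotypes, with an interaction of -1.18 (-1.76 to -0.60, edgeR adjusted p 0.29, DESeq2 adjusted p 0.00752). Fam162a, a mitochondrial protein induced by hypoxia, had 69.7 and 57.3 CPM in WT normoxia, 322 and 289 in WT hypoxia, 50.01 and 49.1 in FIH-KO normoxia and 529 and 408 in FIH-KO hypoxia. Its FIH-KO levels were lowest in normoxia and highest in hypoxia, and the interaction was 0.97 (0.53 to 1.41, edgeR adjusted p 0.212, DESeq2 adjusted p 0.00465). Selenbp1, a selenium-binding methanethiol oxidase, rose by 4.31 in WT and 2.34 in FIH-KO cells. Car9, the carbonic anhydrase that acidifies the surroundings of hypoxic cells, was near the limit of detection, with 2 and 2 reads in WT normoxia, 49 and 27 in WT hypoxia, 5 and 4 in FIH-KO normoxia and 5 and 2 in FIH-KO hypoxia. Car9 rose in WT cells (edgeR adjusted p 0.000316) and did not pass in FIH-KO cells (0.879), and no fold is given because 3 of the groups hold so few reads. Bnip3, a mitophagy receptor, rose by 3.04 in WT and 3.66 in FIH-KO cells, with an interval of the interaction from -0.10 to 1.34.

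Over 18 core HIF targets the median interaction was 0.42 and 14 were positive. The 95% interval was above 0 in 5 (Pdk1, Ldha, Pgk1, Eno1 and P4ha1, 27.8%, against 2.53% of all tested genes). It was below 0 in 3 (Vegfa, Ddit4 and Car9, the last from few reads, 16.7%, against 4.11%). The intervals of the other 10 included 0: besides Slc2a1, Hk2, Egln1, Egln3, Bnip3 and Adm these were Aldoa at 0.43 (-0.05 to 0.91), Higd1a at 0.44 (-0.01 to 0.90), Ankrd37 at 0.60 (-0.23 to 1.43) and Ndrg1 at -0.55 (-1.23 to 0.12). Ndrg1, a stress-responsive HIF target, was -0.999 without FIH-KO hypoxia replicate 1, where edgeR called it (adjusted p 0.0487), and -0.18 without replicate 2. The interaction was positive at an unadjusted p under 0.05 in 11 without FIH-KO hypoxia replicate 2, in 9 without FIH-KO normoxia replicate 1 or WT hypoxia replicate 1, and in 8 without WT normoxia replicate 2. In hypoxia 18 of 18 rose in WT cells and 17 of 18 in FIH-KO cells, the exception being Car9. These counts stand against 16.9% and 8.84% of all tested genes. For the sequence beside these opposite results, the 250 bases upstream of the transcript start are given for Pgk1 and Vegfa, which had the smallest unadjusted p in each direction among HIF targets whose window holds no annotated exon. They are read from GRCm39, 5′ to 3′ on the gene's strand, with the HIF core motif ACGTG or GCGTG on either strand in capitals. The Pgk1 window is chrX:105230456-105230705 on the plus strand and the Vegfa window chr17:46343310-46343559 on the minus strand.
Pgk1: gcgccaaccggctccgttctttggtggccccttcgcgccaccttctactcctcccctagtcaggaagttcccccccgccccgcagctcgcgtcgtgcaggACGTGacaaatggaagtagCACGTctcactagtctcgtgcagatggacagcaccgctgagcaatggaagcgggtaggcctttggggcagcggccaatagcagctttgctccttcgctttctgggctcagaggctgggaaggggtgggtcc
Vegfa: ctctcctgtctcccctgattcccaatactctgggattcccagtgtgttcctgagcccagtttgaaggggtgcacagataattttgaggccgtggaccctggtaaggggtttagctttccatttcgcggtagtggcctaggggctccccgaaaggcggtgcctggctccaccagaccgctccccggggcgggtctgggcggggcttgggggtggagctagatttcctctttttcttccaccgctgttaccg
The Pgk1 window holds 2 cores and the Vegfa window 0, and sequence beyond these 250 bases was not searched. A core occurred in 49 of 73 windows of the 4 HIF target lists (67.1%), in 32 of 46 windows of the stress response list described next (69.6%) and in 50.3% of the windows of all tested genes. It occurred in 12 of the 18 HIF targets with a positive interaction at an unadjusted p under 0.05 and in 3 of the 5 with a negative one.

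**Figure D3:**
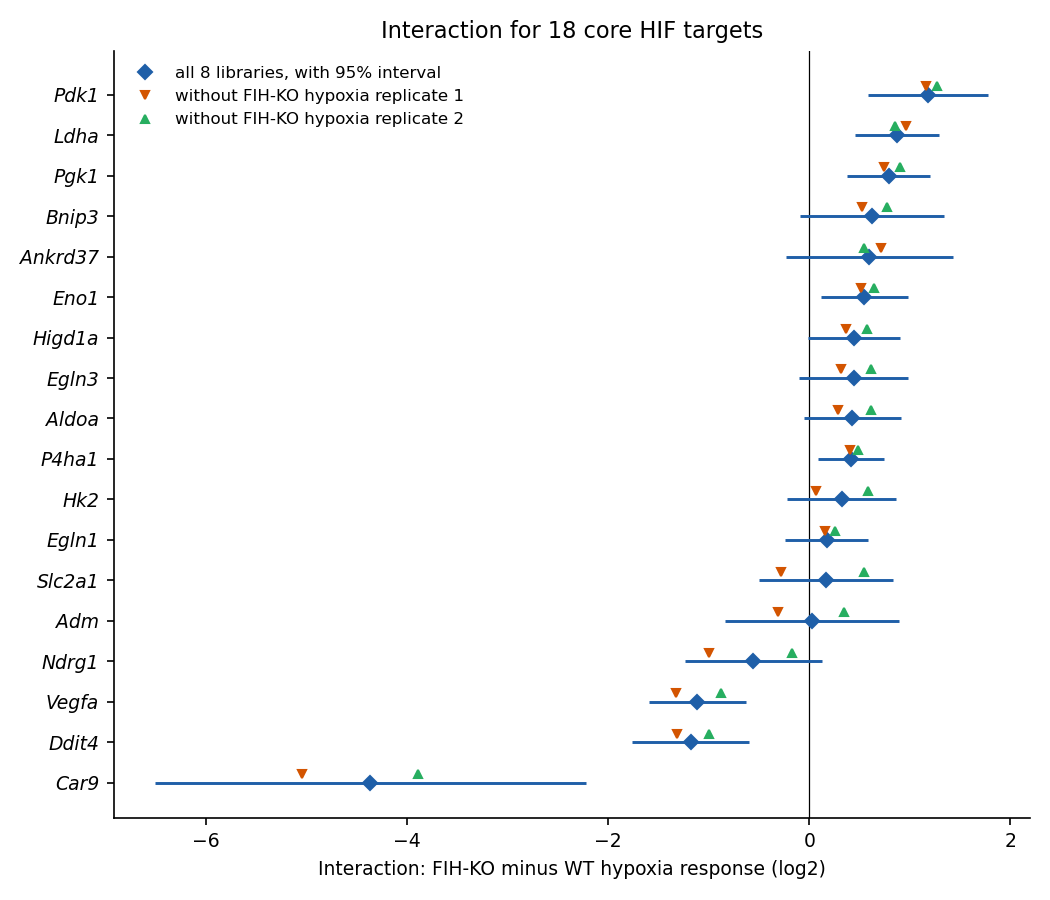
Interaction (FIH-KO minus WT hypoxia response, log2) of 18 core HIF targets, with diamonds for the estimate from 8 libraries, lines for its unadjusted 95% interval, and triangles for the estimates without FIH-KO hypoxia replicate 1 (pointing down) or replicate 2 (pointing up). Pdk1, Ldha and Pgk1 stay above 0 and Vegfa and Ddit4 below 0 under both, whereas Slc2a1 and Adm change sign.

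Components of the HIF pathway itself had a median interaction of 0.03. Hif1a had an interaction of -0.0043 (-0.40 to 0.40) and Vhl of -0.08 (-0.50 to 0.35). Of 16 tested genes, the interval excluded 0 in 2. Rbx1, a subunit of the VHL ubiquitin ligase, was positive at 0.34 (0.0039 to 0.67), 6.25% of the list against 2.53% of all tested genes. Crebbp, the gene of CBP, was negative at -0.51 (-0.87 to -0.14), 6.25% against 4.11%. Hif1an, at chr19:44551286-44568723 of GRCm39 on the plus strand, had 84.6 and 82.3 CPM in WT normoxia, 90.2 and 84.0 in WT hypoxia, 34.8 and 37.7 in FIH-KO normoxia and 45.5 and 51.0 in FIH-KO hypoxia. It was lower in every FIH-KO library than in any WT library, and its interaction was 0.35 (-0.0023 to 0.71).

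Genes of the integrated stress and unfolded protein response had smaller hypoxia responses in FIH-KO than in WT cells by their estimates. Of 46 tested genes, 38 rose in WT hypoxia and 32 in FIH-KO hypoxia, against 16.9% and 8.84% of all tested genes. The median responses of the list were 1.34 and 0.89. The interaction was negative in 40 of 46, with a median of -0.34, and negative at an unadjusted p under 0.05 in 15 (32.6%, against 4.11% of all tested genes) and positive in 0. All 15 rose in WT cells, 13 of them also in FIH-KO cells, and all 15 had a lower estimate in FIH-KO than in WT cells in hypoxia. In normoxia 11 of the 15 had a higher estimate in FIH-KO than in WT cells. Both differences are parts of the interaction by which the 15 were picked. For the 46 genes as a whole, the median log2 difference of FIH-KO from WT cells was -0.14 in normoxia and -0.44 in hypoxia. Over the 15 other settings the count of negative genes was between 8 and 23, that of positive genes at most 2, and the median between -0.56 and -0.13. Leaving out FIH-KO hypoxia replicate 1 gave 23 genes with a list median of -0.56, and leaving out replicate 2 gave 12 with a median of -0.15, while the count was 8 without WT hypoxia replicate 1 and 9 without WT normoxia replicate 1.

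Among the transcription factors of this response, Atf3, which is also in the AP-1 list, had 1.99 and 3.32 CPM in WT normoxia, 86.2 and 72.4 in WT hypoxia, 2.56 and 3.97 in FIH-KO normoxia and 50.3 and 28.0 in FIH-KO hypoxia. The hypoxic levels of both FIH-KO libraries were below both WT libraries while the normoxic levels overlapped, and the interaction was -1.31 (-2.29 to -0.33, edgeR adjusted p 0.593). Ddit3, which encodes CHOP, had 3.02 and 4.15 CPM in WT normoxia, 84.5 and 61.3 in WT hypoxia, 10.7 and 7.84 in FIH-KO normoxia and 72.5 and 37.9 in FIH-KO hypoxia. FIH-KO cells were higher in normoxia, overlapped WT in hypoxia and had an interaction of -1.76 (-2.70 to -0.83). Atf4 mRNA, whose protein is regulated mainly by translation, had an interaction of 0.11 (-0.29 to 0.52).

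The largest difference of the list was in an amino acid transporter. Slc7a3, which carries cationic amino acids and lies at chrX:100122745-100129631 on the minus strand, had 2.25 and 2.49 CPM in WT normoxia, 24.3 and 20.4 in WT hypoxia, 1.55 and 1.74 in FIH-KO normoxia and 4.37 and 2.73 in FIH-KO hypoxia. The 2 WT hypoxia libraries stood above all others, and the response of 3.23 in WT against 1.11 in FIH-KO cells gave an interaction of -2.12 (-2.99 to -1.26, edgeR adjusted p 0.188, DESeq2 adjusted p 0.00465). Slc6a9, the glycine transporter GLYT1, had 24.5 and 31.8 CPM in WT normoxia, 160.2 and 122 in WT hypoxia, 61.6 and 52.1 in FIH-KO normoxia and 141 and 112 in FIH-KO hypoxia. It was higher in FIH-KO normoxia than in WT normoxia, overlapped in hypoxia and had an interaction of -1.17 (-1.70 to -0.64, DESeq2 adjusted p 0.00465). Slc3a2, the heavy chain of several amino acid exchangers, had an interaction of -0.75 (-1.30 to -0.20). Enzymes of serine and cysteine metabolism, Psph and Cth, had -0.47 (-0.90 to -0.04) and -0.96 (-1.498 to -0.42), and Pck2, the mitochondrial phosphoenolpyruvate carboxykinase, had -1.01 (-1.51 to -0.50, DESeq2 adjusted p 0.0215).

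Members of the unfolded protein response of the endoplasmic reticulum were among the 15: Ern1, the sensor IRE1α, at -0.71 (-1.07 to -0.35, DESeq2 adjusted p 0.0494), Herpud1 at -0.89 (-1.498 to -0.28) and the chaperone Dnajb9 at -0.86 (-1.46 to -0.27). By contrast Hspa5, the chaperone BiP, had -0.31 (-0.91 to 0.29). The ATF4-type element TGATGNAA on either strand occurred in the 250-base window of 5 of the 15 genes (Atf3, Ddit3, Chac1, Pck2 and Herpud1), in 9 of 46 members (19.6%) and in 2.29% of all tested genes. The window of Atf3 is shown because it alone of these 5 windows met the same condition of no annotated exon. It is chr1:190915538-190915787 on the minus strand of GRCm39, upstream of the canonical start and inside the span of longer transcripts of the gene, with the element TTGCATCA (on the opposite strand to the gene) and 2 HIF cores in capitals.
Atf3: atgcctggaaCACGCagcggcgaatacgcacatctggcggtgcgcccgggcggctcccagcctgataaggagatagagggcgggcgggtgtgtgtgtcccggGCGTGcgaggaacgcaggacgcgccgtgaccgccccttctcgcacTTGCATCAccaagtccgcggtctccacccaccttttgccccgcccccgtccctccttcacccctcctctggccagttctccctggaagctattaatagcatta

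Stress-responsive and clock genes had negative medians too. Of 31 AP-1 and immediate early genes, 25 rose in WT and 15 in FIH-KO hypoxia, against 16.9% and 8.84% of all tested genes. The interaction was negative in 28, with a median of -0.49. At an unadjusted p under 0.05, 8 were negative and 0 positive (25.8% negative, against 4.11% of all tested genes). Dusp1, a phosphatase that switches off MAP kinases, had 3.08 and 3.67 CPM in WT normoxia, 18.5 and 15.9 in WT hypoxia, 9.17 and 12.9 in FIH-KO normoxia and 19.0 and 19.5 in FIH-KO hypoxia. Its FIH-KO levels were above WT in both conditions, with a wider gap in normoxia and an interaction of -1.54 (-2.18 to -0.89, edgeR adjusted p 0.188, DESeq2 adjusted p 0.00752). Among the Krüppel-like factors Klf2, Klf4 and Klf6 had interactions of -1.36, -1.14 and -0.46. The count of negative genes was 13 with a median of -0.61 without FIH-KO hypoxia replicate 1, and 5 negative and 3 positive with a median of -0.29 without replicate 2. It was 3 without WT hypoxia replicate 1, and 5 without either FIH-KO normoxia library or without WT normoxia replicate 1.

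Of 22 NF-κB targets, chemokines and cytokines, 12 rose in WT and 8 in FIH-KO hypoxia, against 16.9% and 8.84% of all tested genes. The median interaction of the list was -0.45. At an unadjusted p under 0.05, 6 were negative and 0 positive (27.3% negative, against 4.11% of all tested genes). Without FIH-KO normoxia replicate 2 there were 3 negative and the median was -0.24, and without FIH-KO normoxia replicate 1 it was -0.25. Nfkb2, a subunit of the non-canonical pathway, had 65.9 and 71.9 CPM in WT normoxia, 155 and 144 in WT hypoxia, 51.9 and 57.3 in FIH-KO normoxia and 73.9 and 61.2 in FIH-KO hypoxia. The WT hypoxia libraries were the highest, and Nfkb2 rose in WT but did not pass in FIH-KO cells (edgeR adjusted p 0.112), with an interaction of -0.81 (-1.19 to -0.44, DESeq2 adjusted p 0.0302). Lif, a cytokine of the interleukin-6 family, had an interaction of -1.14 (-1.86 to -0.42), Relb of -0.75 and the chemokine Cxcl1 of -1.67, the latter at under 10 CPM in every library.

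The circadian list had a median interaction of -0.55 over 18 genes, with 15 negative estimates and 7 genes negative and 0 positive at an unadjusted p under 0.05 (38.9% negative, against 4.11% of all tested genes). These were the repressors Per1, Per2, Per3, Cry1 and Cry2, the nuclear receptor Nr1d1 and Bhlhe41. Per1 had 26.0 and 25.8 CPM in WT normoxia, 51.8 and 61.2 in WT hypoxia, 31.7 and 36.7 in FIH-KO normoxia and 47.0 and 46.7 in FIH-KO hypoxia. WT hypoxia was the highest group, and the interaction was -0.67 (-1.08 to -0.26). Per2 had 5.14 and 4.502 CPM in WT normoxia, 13.5 and 11.4 in WT hypoxia, 19.2 and 21.6 in FIH-KO normoxia and 19.2 and 29.5 in FIH-KO hypoxia, so that all FIH-KO libraries were above WT hypoxia, with an interaction of -1.12 (-1.79 to -0.44). Cry1 had an interaction of -0.50 (-0.91 to -0.08). Over the 15 other settings between 3 and 11 genes were negative and 0 positive, and the median was between -0.58 and -0.40. The count was 3 without WT normoxia replicate 2, and 4 without WT normoxia replicate 1, WT hypoxia replicate 1 or FIH-KO normoxia replicate 2.

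Targets of p53 had a median interaction of -0.31 over 31 genes, with 7 negative and 0 positive at an unadjusted p under 0.05 (22.6% negative, against 4.11% of all tested genes). The median was -0.13 without FIH-KO hypoxia replicate 2 or FIH-KO normoxia replicate 1, -0.16 without WT normoxia replicate 1 and -0.19 without WT hypoxia replicate 1. Cdkn1a, the cell cycle inhibitor p21, had 134 and 112 CPM in WT normoxia, 340.2 and 275 in WT hypoxia, 246 and 227 in FIH-KO normoxia and 428 and 284 in FIH-KO hypoxia. Normoxic levels were higher in FIH-KO cells and hypoxic levels overlapped, with an interaction of -0.73 (-1.28 to -0.19). Mdm2, the ubiquitin ligase of p53, had -0.56 (-1.05 to -0.08), and the BH3-only genes Bbc3 and Pmaip1, encoding PUMA and NOXA, had -1.13 (-2.10 to -0.16) and -0.83 (-1.48 to -0.18). The count was 1 without WT hypoxia replicate 1, 3 without FIH-KO hypoxia replicate 2 or WT normoxia replicate 2, and 4 without FIH-KO normoxia replicate 1 or WT normoxia replicate 1. In the Notch pathway, whose receptors are themselves hydroxylated by FIH, Notch3, Jag1 and Dll1 were negative at an unadjusted p under 0.05 and 0 of 13 genes positive (23.1% negative, against 4.11% of all tested genes). That count of 3 was 5 without FIH-KO hypoxia replicate 1, and 1 without any single WT library. The ligand Dll1 had 2.63 and 2.31 CPM in WT normoxia, 7.34 and 5.67 in WT hypoxia, 1.25 and 1.90 in FIH-KO normoxia and 1.94 and 1.30 in FIH-KO hypoxia, and the interaction was -1.36 (-2.40 to -0.33). Of 17 FIH substrates other than HIF, Notch3 alone had an unadjusted p under 0.05 (5.88% negative, against 4.11% of all tested genes).

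Counts of cell cycle genes moved with a single library. The G2/M list had a median response of -0.30 in WT and -0.01 in FIH-KO cells. The interaction was positive in 52 of 54 genes, with a median of 0.31. At an unadjusted p under 0.05 there were 7 positive genes (Cdk1, Ube2c, Cks2, Tubb4b, Cdc25c, Kif2c and Cenpa, 13% against 2.53% of all tested genes) and 0 negative. Without FIH-KO hypoxia replicate 1 the count was 47 and the median 0.61, and without replicate 2 they were 2 and 0.05. The summed level of the list was 12177 and 11884 CPM in WT normoxia, 10122 and 10666 in WT hypoxia, 9932 and 10129 in FIH-KO normoxia and 8716 and 12336 in FIH-KO hypoxia. Replicate 1 of FIH-KO hypoxia was thus the lowest library of all 8 and replicate 2 the highest. Cdk1, the mitotic kinase, had 248 and 227 CPM in WT normoxia, 151 and 158 in WT hypoxia, 201 and 211 in FIH-KO normoxia and 164 and 245 in FIH-KO hypoxia, and the interaction was 0.61 (0.13 to 1.09). Cenpa, the histone of the centromere, had 101 and 100.4 CPM in WT normoxia, 80.0 and 84.4 in WT hypoxia, 70.9 and 79.3 in FIH-KO normoxia and 81.3 and 90.7 in FIH-KO hypoxia and the smallest unadjusted p of the list (0.00894).

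S phase genes had a median interaction of 0.03 with 0 of 43 genes at an unadjusted p under 0.05. Without FIH-KO hypoxia replicate 1, 17 were positive and 0 negative, and without replicate 2, 11 were negative and 0 positive. Their summed level was 3017 and 4370 CPM in FIH-KO hypoxia, against 4549 and 4513 in WT hypoxia. Hypoxia lowered 22 S phase genes in WT and 18 in FIH-KO cells, against 15.5% and 8% of all tested genes. For comparison, the summed level of the stress response list was 18025 and 15993 CPM in WT hypoxia and 14330 and 11658 in FIH-KO hypoxia. The genotypes did not overlap there, nor in normoxia, where the sums were 8682 and 9827 CPM in WT and 7708 and 8461 in FIH-KO cells. That of the glycolysis list was 16664 and 15231 CPM in WT normoxia and 12346 and 12250 in FIH-KO normoxia. In hypoxia the glycolysis sums overlapped, at 30207 and 25398 CPM in WT and 34576.5 and 30092 in FIH-KO cells.

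**Figure D4:**
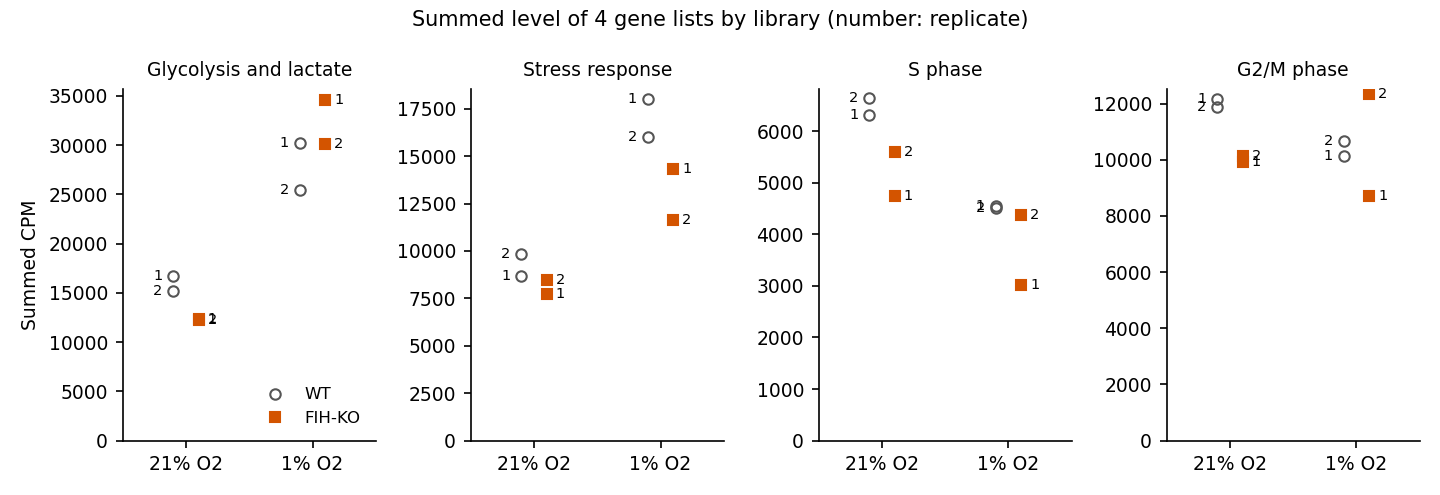
Summed CPM of the genes of 4 lists in each library, with open circles for WT, filled squares for FIH-KO and the replicate number beside each point, on axes that start at 0. In the S phase and G2/M panels the 2 FIH-KO hypoxia libraries lie further apart than any other pair, and in the glycolysis panel the FIH-KO libraries are the lowest in normoxia.

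Nuclear genes of oxidative phosphorylation had a median response of -0.46 in WT and -0.34 in FIH-KO cells. In hypoxia 34 and 23 of 51 were lower, against 15.5% and 8% of all tested genes. The interaction was positive at an unadjusted p under 0.05 in 5 (Ndufb3, Sdhd, Uqcrb, Cycs and Cox7a2, 9.8%) and negative in Cox6a1 (1.96%), against 2.53% and 4.11% of all tested genes. Sdhd, a membrane subunit of succinate dehydrogenase, had 197 and 189 CPM in WT normoxia, 107 and 104 in WT hypoxia, 139 and 137 in FIH-KO normoxia and 107 and 121 in FIH-KO hypoxia, an interaction of 0.59 (0.27 to 0.91). Of 13 mitochondrially encoded genes mt-Nd6 was positive (7.69%, against 2.53% of all tested genes) and none negative. Cholesterol and fatty acid synthesis genes rose in 24 of 33 cases in each genotype, with medians of 0.79 in both. Over all tested genes 16.9% rose in WT and 8.84% in FIH-KO cells. At an unadjusted p under 0.05 the list had 1 positive (Elovl6, 3.03%) and 2 negative interactions (Insig1 and Fads1, 6.06%). These counts were 5 and 0 without FIH-KO hypoxia replicate 1, and 0 and 6 without replicate 2.

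At the same unadjusted p, Myc targets and ribosome biogenesis had 2 positive genes of 50 (Eif4a1 and Ldha, the latter shared with glycolysis) and 0 negative, a share of 4% against 2.53% of all tested genes, and between 1 and 17 (without FIH-KO normoxia replicate 2) positive over the other settings. NRF2 and antioxidant genes had 3 positive (Prdx1, Gstp1 and Keap1, 9.38%) and 2 negative (Gclc and Sqstm1, 6.25%), but 1 and 9 without FIH-KO hypoxia replicate 1, and 11 and 1 without replicate 2. Sqstm1, the autophagy receptor p62, had 340.0 and 392.2 CPM in WT normoxia, 1251 and 960.4 in WT hypoxia, 639 and 508 in FIH-KO normoxia and 1123 and 708 in FIH-KO hypoxia, an interaction of -0.92 (-1.55 to -0.29). Of 34 interferon response genes Isg20, Oas3 and Ifitm3 were negative (8.82%, against 4.11% of all tested genes), the last at -0.78 (-1.18 to -0.38, DESeq2 adjusted p 0.0386). Of 36 genes of the extracellular matrix Col3a1 and Spp1 were positive (5.56%) and Fn1, Bgn and Itgb3 negative (8.33%). Apoptosis genes had 3 positive (Bok, Bmf and Cycs, 10%) and 2 negative (Bbc3 and Pmaip1, 6.67%) of 30, and YAP/TAZ and Hippo genes 1 negative (Crim1) of 37 (2.7%).

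**Figure D5:**
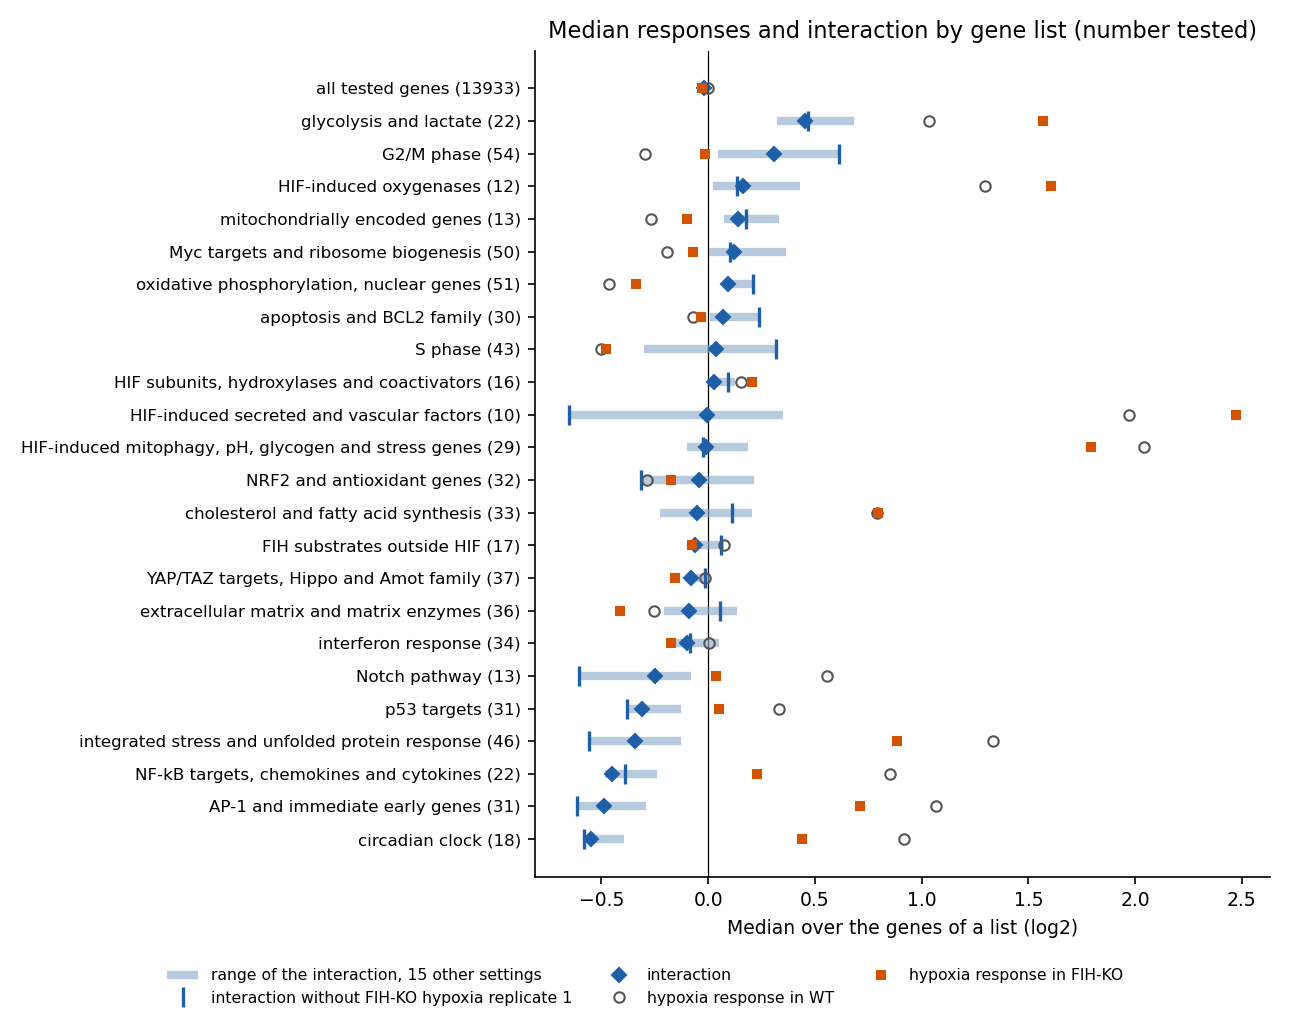
Median log2 values over the tested genes of each list (number in brackets), with open circles for the WT hypoxia response, squares for the FIH-KO hypoxia response, diamonds for the interaction, bars for the range of the interaction over 15 other settings and ticks for its value without FIH-KO hypoxia replicate 1. The bars of glycolysis, G2/M, HIF-induced oxygenases, HIF subunits, Myc targets, apoptosis, nuclear oxidative phosphorylation and mitochondrially encoded genes lie above 0. Those of the stress response, p53, NF-κB, AP-1, circadian and Notch lists lie below 0. Those of S phase, of the secreted HIF targets and of other lists cross 0.

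Genes that the study drew attention to from its RNA-Seq were chosen on these samples for their genotype difference, so their place here is not independent evidence. Amot, a scaffold of the Hippo pathway, had 10.7 and 10.6 CPM in WT normoxia, 5.10 and 3.96 in WT hypoxia, 270.4 and 238 in FIH-KO normoxia and 109.6 and 196 in FIH-KO hypoxia. It fell in hypoxia in both genotypes, by 1.22 in WT and 0.73 in FIH-KO cells on the log2 scale, and the interaction was 0.49 (-0.27 to 1.25, edgeR adjusted p 0.815). It was 0.92 without FIH-KO hypoxia replicate 1 and 0.0099 without replicate 2. Bcl2l1, which encodes BCL-XL, fell in both genotypes, with responses of -0.82 and -0.82 and an interval of the interaction from -0.32 to 0.31. Bmf, a BH3-only gene, had an interaction of 0.97 (0.01 to 1.92) at 0.785 and 0.819 CPM in WT hypoxia. The interactions of Myc, Cdc25a, Npm1, Efna5 and Dtna were -0.42 (-1.31 to 0.47), -0.01 (-0.53 to 0.52), 0.29 (-0.11 to 0.70), 0.29 (-0.93 to 1.503) and -0.36 (-1.26 to 0.53). None of these 5 intervals excludes 0. Without FIH-KO hypoxia replicate 1 the interaction was -0.97 for Myc, 0.27 for Cdc25a, 0.11 for Efna5 and -0.76 for Dtna, and without replicate 2 it was 0.0056, -0.25, 0.50 and -0.015.

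Among single genes outside these lists, Iah1, an esterase-like hydrolase, had the smallest p of the whole comparison (unadjusted 1.04e-05 in edgeR's quasi-likelihood test). It lies at chr12:21366287-21373850 on the plus strand and had 16.6 and 18.2 CPM in WT normoxia, 56.1 and 52.9 in WT hypoxia, 28.5 and 21.6 in FIH-KO normoxia and 27.2 and 26.2 in FIH-KO hypoxia. WT hypoxia was the group that stood apart, and the interaction was -1.55 (-2.03 to -1.08, edgeR adjusted p 0.145, DESeq2 adjusted p 1.58e-05). Txnip, which inhibits thioredoxin and glucose uptake, had 32.3 and 36.0 CPM in WT normoxia, 176 and 97.5 in WT hypoxia, 189 and 90.8 in FIH-KO normoxia and 135 and 114 in FIH-KO hypoxia. It rose by 2.002 in WT cells and had an estimate of -0.17 in FIH-KO cells, where normoxic and hypoxic levels overlapped, with an interaction of -2.17 (-3.10 to -1.24, edgeR adjusted p 0.188, DESeq2 adjusted p 0.157). Pdgfa, a platelet-derived growth factor, had 8.74 and 8.71 CPM in WT normoxia, 17.5 and 18.7 in WT hypoxia, 44.7 and 35.2 in FIH-KO normoxia and 34.2 and 29.4 in FIH-KO hypoxia and an interaction of -1.38 (-1.88 to -0.88, DESeq2 adjusted p 0.00113).

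Pcx, pyruvate carboxylase, which feeds pyruvate into the citric acid cycle, had 15.4 and 15.7 CPM in WT normoxia, 21.5 and 21.0 in WT hypoxia, 37.7 and 31.1 in FIH-KO normoxia and 13.1 and 21.3 in FIH-KO hypoxia. It fell in FIH-KO hypoxia (edgeR adjusted p 0.00614) and did not pass in WT cells (0.115), an interaction of -1.45 (-2.08 to -0.82). Slc43a2, a transporter of large neutral amino acids, had the same form, with 2.70 and 2.90 CPM in WT normoxia, 4.54 and 3.96 in WT hypoxia, 21.3 and 14.8 in FIH-KO normoxia and 8.81 and 6.12 in FIH-KO hypoxia. Snai2, the transcription factor SLUG of epithelial to mesenchymal transition, had 40.7 and 42.6 CPM in WT normoxia, 119.6 and 105 in WT hypoxia, 50.4 and 54.5 in FIH-KO normoxia and 74.3 and 79.9 in FIH-KO hypoxia and rose in both genotypes, with an interaction of -0.87 (-1.23 to -0.52). Itpr2, a calcium channel of the endoplasmic reticulum, had 10.7 and 13.6 CPM in WT normoxia, 46.0 and 41.6 in WT hypoxia, 31.4 and 22.9 in FIH-KO normoxia and 37.7 and 27.3 in FIH-KO hypoxia. Its interaction was -1.59 (-2.20 to -0.97), that of Prune2 -1.16 (-1.60 to -0.73) and that of Aff1, a subunit of the super elongation complex, -0.87 (-1.204 to -0.53).

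In the positive direction Angptl2, a secreted angiopoietin-like protein, had 211 and 185 CPM in WT normoxia, 81.8 and 71.0 in WT hypoxia, 224 and 231 in FIH-KO normoxia and 184 and 169 in FIH-KO hypoxia. It fell in hypoxia in both genotypes, to the lowest levels in WT cells, and the interaction was 1.01 (0.65 to 1.36, edgeR adjusted p 0.188, DESeq2 adjusted p 0.000325). Cav2, a caveolin, had 152 and 141 CPM in WT normoxia, 62.9 and 74.5 in WT hypoxia, 123 and 114 in FIH-KO normoxia and 98.5 and 111 in FIH-KO hypoxia and fell in WT cells, with an edgeR adjusted p of 0.331 in FIH-KO cells. Its interaction was 0.91 (0.54 to 1.28). Mgarp, a mitochondrial protein, had 1.09 and 0.948 CPM in WT normoxia, 8.52 and 6.83 in WT hypoxia, 0.298 and 0.280 in FIH-KO normoxia and 13.1 and 11.4 in FIH-KO hypoxia, and an interaction of 2.46 (1.399 to 3.53) that rests on 5 and 5 reads in FIH-KO normoxia. Snx25, a sorting nexin, had 39.8 and 38.4 CPM in WT normoxia, 37.7 and 44.0 in WT hypoxia, 25.8 and 27.9 in FIH-KO normoxia and 50.03 and 57.5 in FIH-KO hypoxia. Snx25 rose in FIH-KO hypoxia and did not pass in WT cells (edgeR adjusted p 0.757). The uncharacterised transcript 4930447F24Rik rose by 2.70 in WT and 3.96 in FIH-KO cells.

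Of the 12 genes of smallest p in the positive direction, 10 were lower in FIH-KO than in WT cells in normoxia, and of the 12 in the negative direction 11 were higher, by their estimates. The normoxic difference is part of the interaction that chose these genes, so these counts are a description and no independent observation. The sign of the difference on the linear CPM scale matched that of the log2 interaction in 11 of the 12 positive genes, the exception being Stc1, and in 12 of the 12 negative ones. DESeq2 called 10 of the 12 positive and 11 of the 12 negative genes, Slc16a3 and Stc1 and, on the negative side, Txnip being the exceptions. Other genes that DESeq2 called in the negative direction included Grem1, Adamts1, Agap1, Zfp703, Egfr, Rhob and Kdm7a, with edgeR estimates between -1.37 for the histone demethylase gene Kdm7a and -0.90 for Agap1. In the positive direction it called Apcdd1, Tagln2 and the cold-inducible RNA-binding protein gene Rbm3, at 0.84, 0.64 and 0.88. Egfr, the epidermal growth factor receptor, had 28.3 and 31.8 CPM in WT normoxia, 29.7 and 33.7 in WT hypoxia, 142 and 126 in FIH-KO normoxia and 64.1 and 81.6 in FIH-KO hypoxia, an interaction of -0.96 (-1.39 to -0.52).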

How the data were processed

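RNA of 8 LLC libraries was sequenced from stranded mRNA preparations. The deposited values are raw read counts per gene, which the authors obtained by alignment with STAR and counting with HTSeq, 1 column per library. The study's methods name GRCm39 for the alignment, whereas the sample labels also list an earlier mouse build. Versions, annotation release, strand setting and the treatment of reads with several matches are not given in the sources used here, so genes with near-identical copies are uncertain. Library totals of 14519731 to 18177016 set the counting precision.

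Genes were filtered with filterByExpr by group, scaled by TMM and fitted with edgeR 4.0.16 (quasi-likelihood test, group means over the 8 libraries, Benjamini-Hochberg adjustment, threshold 0.05), and the steps were tested on simulated data. Standard errors were the log2 value over the root of F, and intervals used between 9.18 and 12.2 degrees of freedom. The study's tool, DESeq2 (1.42.0, Wald test), other scalings and filters, limma voom (3.58.1) with sample quality weights, the replicate number as a block, and the omission of each library were the alternatives. The members and lists were chosen with earlier results of these data known. Genes were named by rule: 12 per direction by smallest p with a mean of at least 50 counts, core HIF targets, study genes and Hif1an, and others after seeing their values. Of 762 list symbols 11 were matched through RefSeq synonyms and 5 were not found in the table. Promoter windows came from GRCm39 and canonical GENCODE starts, for 13897 tested genes. A few genes are not reported here.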

Additional observations from a re-analysis of the deposited data

How the results depend on the processing

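The number of genes called in the interaction was 0 in each direction in edgeR's quasi-likelihood test and also with RLE or upper-quartile factors, with a filter of at least 10 counts in every library and with limma voom and sample quality weights. DESeq2 called 15 higher and 25 lower. Without a filter beyond 1 read edgeR called 45 higher and 98 lower, with an infinite prior degrees of freedom in place of 8.18. Of those 143 genes 142 passed the filter used elsewhere, and all 142 had the same sign there. Both fits use the same libraries, so the shared signs are no independent support. With the replicate block 1 gene was higher (Slc16a3) and 4 were lower (Ddit4, Txnip, Iah1 and Selenbp1). Whether same-numbered libraries were handled together is not stated in the sources used here. The deviations of same-numbered libraries had correlations between -0.010 and 0.193. Leaving out single libraries gave 0 to 19 higher and 0 to 20 lower, the most without FIH-KO hypoxia replicate 1. The genes called in hypoxia numbered 2124 to 5270 in WT and 1097 to 2604 in FIH-KO cells when single libraries were left out.

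Among named genes 7 changed sign under some setting, each with an interval that included 0. Adm was -0.042 with the replicate block and -0.038 with voom weights. Bcl2l1 was 0.0049 in DESeq2 and with RLE, 0.025 with upper quartile, 0.015 without the filter and 0.027 with at least 10 counts, and Cdc25a was 0.0015, 0.0011, 0.021, 0.012 and 0.022 in DESeq2 and those settings in turn. Over the omission of single libraries the ranges were -0.28 to 0.54 for Slc2a1, -0.35 to 0.44 for Adm, -0.010 to 0.11 for Bcl2l1, -0.10 to 0.97 for Efna5, -0.97 to 0.0056 for Myc, -0.25 to 0.29 for Cdc25a and -0.76 to 0.079 for Dtna. The cause was not tested. Of the other values, 13 list medians moved by more than the spread of those medians between replicates and 422 did not.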
